A study of Mus musculus with 6 samples.

Results

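FXR, encoded by Nr1h4, is a nuclear receptor that is activated by bile acids. It is best known in liver and intestine, where it controls genes of bile acid synthesis and transport, and it is also made in pancreatic islets. A nuclear receptor carries a DNA-binding domain near its amino end and a ligand-binding domain at its carboxyl end, which the last coding exons encode. The region described here is the stretch of mouse chromosome 10 around Nr1h4, from 85000000 to 100000000 in GRCm38 coordinates, a span of 15 Mb. All rows of the exon count table that start inside it were taken, which gave 689 of 139186 exons, in 98 genes. Rows were taken by position alone. The rule for the interval names Nr1h4, Gas2l3, Fgd6 and Ndufa12 as included, and these genes were named with earlier results of these data known.

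RNA was sequenced from islets of 3-month-old mice, collected by collagenase digestion of the pancreas. The FXR+/+ (wild type) group and the FXR-/- group each held 1 female and 2 males, sequenced as 6 separate libraries, and the labels name no treatment beyond the isolation of islets. FXR-/- mice were described as C57Bl/6 and came from another laboratory. The strain source of the FXR+/+ mice, whether they were littermates, and how the Nr1h4 allele was made are not given in the sources used here. Nothing states whether a library held the islets of 1 mouse or of several, so the p-values measure the spread between these libraries. In bulk RNA, fewer cells of a type and less RNA per cell cannot be told apart. The 9 markers of beta cells were counted in every library and together made up 186872 to 271733 CPM (counts per 1000000 after scaling) of the gene counts.

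Exon counts summed to between 6827362 and 11029507 per library, and the interval took 0.310% to 0.383% of them. Most of its exons were shallow: the median total over the 6 libraries was 7 counts, and 392 of the 689 exons had fewer than 10 counts in all. A filter on low counts left 130 exons in 63 genes for testing. The other 559 are described by their counts only. The exon table held 32.3% to 36.6% as many counts as the gene table, so an exon value here is only part of what was counted for its gene.

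The coding parts of the exons on which the results turn are shown 5′ to 3′, read from the GENCODE vM21 transcripts of GRCm38, with the stop codon in capitals. They are the exon before the last and the last exon of Nr1h4 (minus strand, chr10:89456531-89456644 and chr10:89454710-89454948), the final 90 coding bases of Gas2l3 (minus strand, chr10:89413203-89413292), and the coding ends of Fgd6 (plus strand, chr10:94141753-94141789) and Ndufa12 (plus strand, chr10:94220681-94220861).
Nr1h4 exon before the last: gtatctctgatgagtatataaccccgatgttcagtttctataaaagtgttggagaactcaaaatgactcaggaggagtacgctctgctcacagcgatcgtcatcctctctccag
Nr1h4 last exon: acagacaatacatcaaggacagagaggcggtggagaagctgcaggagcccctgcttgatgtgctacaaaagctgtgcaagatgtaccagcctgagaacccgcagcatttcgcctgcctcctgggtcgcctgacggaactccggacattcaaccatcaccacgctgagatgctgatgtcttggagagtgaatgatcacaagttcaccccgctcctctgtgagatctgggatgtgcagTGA
Gas2l3 last exon: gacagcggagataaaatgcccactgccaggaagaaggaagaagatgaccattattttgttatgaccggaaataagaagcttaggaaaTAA
Fgd6 last exon: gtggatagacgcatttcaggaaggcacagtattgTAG
Ndufa12 last exon: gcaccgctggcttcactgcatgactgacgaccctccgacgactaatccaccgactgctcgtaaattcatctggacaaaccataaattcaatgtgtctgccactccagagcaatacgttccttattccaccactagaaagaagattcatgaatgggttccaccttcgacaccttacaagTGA
The last exon of Nr1h4 is exon 9 of 9 in the transcript used and holds 239 of its 1467 coding bases, or 16.3%, with the exon before it adding a further 114. The last exon holds 62.9% of the coding sequence of Gas2l3 and 40.2% of that of Ndufa12, but only 0.881% of that of Fgd6, in which nearly all of the 3587 bases lie past the stop codon.

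The targeted gene was examined first. The last exon of Nr1h4 (chr10:89454234-89454948) had 73, 56 and 81 counts in the FXR+/+ female 1, male 1 and male 2 libraries, and 0, 0 and 0 counts in the FXR-/- libraries of the same order. No FXR-/- library held a read of it, so all 3 libraries match their label. Its level was 8.36 CPM ± 0.959 (SD, n = 3) in FXR+/+ islets and at least 20.7-fold lower in FXR-/- islets, taking 3 counts per library as the floor (edgeR, adjusted p = 0.00642).

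Reads remained on other exons of Nr1h4. The 369-base coding exon (chr10:89498049-89498417), the only other exon of the gene that was tested, had 16, 14 and 20 counts in FXR+/+ and 13, 12 and 10 in FXR-/- libraries, with a log2 fold change of -0.35 ± 0.35 (SE) and an adjusted p of 0.781. The exon before the last had 1, 2 and 0 counts in FXR+/+ and 11, 13 and 8 in FXR-/- libraries. It was too low to be tested and is named after its values were seen. Every FXR-/- library lay above every FXR+/+ library. The summed counts of 32 against 3 gave a ratio of 11.96 with an exact 95% interval of 3.74 to 61.0, which covers counting error only. How reads that cross into the next exon were counted is not given, and the ratio may depend on that rule. The remaining 7 exon rows of Nr1h4 had between 0 and 8 counts in any library.

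**Figure D1:**
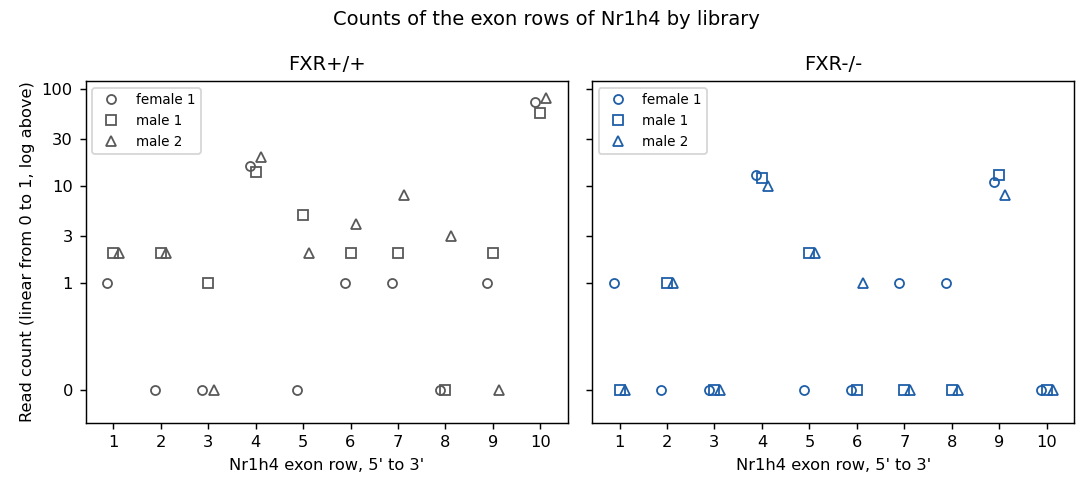
Read counts (vertical axis, linear from 0 to 1 and logarithmic above) of the 10 exon rows of Nr1h4 in 5′ to 3′ order (horizontal axis), with FXR+/+ libraries on the left and FXR-/- libraries on the right and 1 symbol per library. Row 10, the last exon, has 56 to 81 counts in FXR+/+ and none in FXR-/- libraries, while row 9 has 0 to 2 counts in FXR+/+ and 8 to 13 in FXR-/- libraries.

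Summed over all exon rows of Nr1h4 except the last, the counts were 20, 30 and 41 in FXR+/+ and 27, 28 and 22 in FXR-/- libraries, which overlap. The gene table, which holds more reads than the exon rows, gave Nr1h4 333, 274 and 386 counts in FXR+/+ and 140, 145 and 138 in FXR-/- libraries. Less the count of the last exon row, these were 260, 218 and 305 in FXR+/+ and 140, 145 and 138 in FXR-/- libraries. This difference was also lower in every FXR-/- library than in any FXR+/+ library. The counting rule is not given, so it may hold reads that lie partly in the last exon. The gene count had a log2 fold change of -1.07 ± 0.16 (SE) and an adjusted p of 0.217. With the libraries paired by their numbers the adjusted p was 0.0441, and with DESeq2 it was 7.89e-05.

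Whether an exon changed relative to its gene was tested for 101 exons of the interval. The 2 exons called were both of Nr1h4, against 0.00952% of all exons tested for usage: the last exon, by -6.35 on the log2 scale (adjusted p = 0.00894), and the 369-base exon, by 2.38 (adjusted p = 0.0190). They are the only 2 tested exons of this gene, and each was measured against a change that included its own. The level of the 369-base exon was itself at -0.35, so its value of 2.38 reflects the fall of the last exon. With the libraries paired, the adjusted p rose to 0.0536 and 0.0749, and neither was called. The 369-base exon was called in 0 of 6 fits that left out 1 library, with values from 1.37 (without FXR+/+ female 1) to 2.39 (without FXR-/- male 1), and without the filter on low counts it was at 1.43. The last exon was not called without FXR+/+ female 1, FXR-/- female 1 or FXR-/- male 1. Without the filter, the exon before the last entered the test and was called at 5.21 (adjusted p = 1.44e-05), beside the last exon at -7.29 (adjusted p = 4.84e-06).

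Across the interval the exon test called 4 of 130 exons, against 0.0185% of all 26981 exons tested. Of the 5 exons called in the whole table, 4 thus lay here. They were the last exons of Nr1h4, Fgd6 and Ndufa12, which were lower in FXR-/- islets, and that of Gas2l3, which was higher. These are the 4 genes named in the rule for the interval, so the share of calls inside it is no test of the interval. Paired by number, the test called 8 exons, these 4 among them, together with exons of Metap2, Elk3, Ikbip and Vezt, all of which were lower. How many exons of the whole table the paired fit called was not counted. The share of 0.0185% belongs to the main fit and cannot be set beside these 8.

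Gas2l3, which encodes a linker of actin filaments and microtubules, is the nearest gene on the lower-coordinate side of Nr1h4 and lies on the same strand, 10266 bases past its 3′ end. Its last exon had 9, 16 and 20 counts in FXR+/+ and 98, 68 and 84 in FXR-/- libraries. The lowest FXR-/- library was above 3 times the highest FXR+/+ library, and the level was 1.78 CPM ± 0.593 (SD, n = 3) in FXR+/+ islets and 11.8, 10.7 and 10.4 CPM in the FXR-/- libraries. Its log2 fold change was 2.63 ± 0.27 (SE), a 6.21-fold rise, with an adjusted p of 0.0104. Its 3 other exon rows had no count in FXR+/+ libraries and 3, 3 and 4 counts, summed, in FXR-/- libraries. The gene table gave 10, 18 and 26 counts in FXR+/+ and 123, 87 and 104 in FXR-/- libraries, with a log2 fold change of 2.71 ± 0.28. Of the 72 genes tested in the interval this was the highest value (adjusted p = 0.129, paired 0.0248).

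Fgd6 and Ndufa12 lie over 4 Mb on the other side of Nr1h4, and only Nr2c1 lies between them in the exon table. Fgd6 encodes an exchange factor of small GTPases. Its last exon had 480, 291 and 648 counts in FXR+/+ and 172, 88 and 122 in FXR-/- libraries. Every FXR-/- library was below every FXR+/+ library, with 54.7 CPM ± 10.6 against 16.6 CPM ± 3.66 (SD, n = 3), and the exon fell by 1.73 ± 0.17 (SE) on the log2 scale (adjusted p = 0.00758). Its large second exon (chr10:94043302-94045633, 2332 coding bases) had 280, 249 and 401 counts in FXR+/+ and 254, 172 and 189 in FXR-/- libraries. After scaling, these groups did not overlap either, but the difference was smaller, with a log2 fold change of -0.44 ± 0.14 and an adjusted p of 0.602. In the test of exon usage, the last exon was measured against a change of the gene that included its own. It gave a log2 value of -0.66, which is therefore not its difference from the second exon. The unadjusted p of this usage test was 0.00808, which did not pass adjustment (adjusted p = 1). The gene table gave Fgd6 a log2 fold change of -0.83 ± 0.10 (adjusted p = 0.197, paired 0.0441).

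Ndufa12 encodes an accessory subunit of complex I of the mitochondrial respiratory chain. Its last exon had 73, 41 and 73 counts in FXR+/+ and 12, 3 and 8 in FXR-/- libraries, without overlap. It fell by 2.89 ± 0.31 (SE) on the log2 scale (adjusted p = 0.0108), from 7.38 CPM ± 1.78 to 0.972 CPM ± 0.488 (SD, n = 3). The gene table held far more reads and a smaller difference, with 802, 546 and 994 counts in FXR+/+ and 440, 412 and 513 in FXR-/- libraries and a log2 fold change of -0.60 ± 0.13 (adjusted p = 0.286, DESeq2 0.0130). The gene counts less those of the last exon row were 729, 505 and 921 in FXR+/+ and 428, 409 and 505 in FXR-/- libraries. They may likewise hold reads that lie partly in that exon. Nr2c1, a nuclear receptor without a known physiological ligand, lies between these genes and had 324, 294 and 388 gene counts in FXR+/+ and 311, 210 and 290 in FXR-/- libraries, with a log2 fold change of -0.18 ± 0.12 (adjusted p = 0.581).

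**Figure D2:**
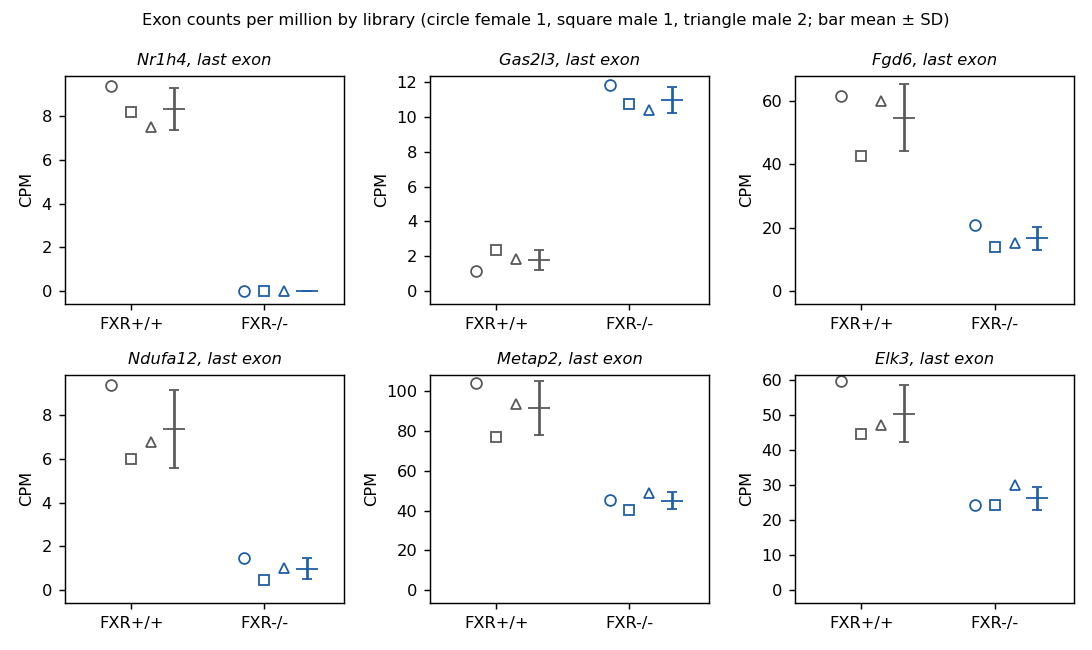
CPM (vertical axes) of the last listed exon of 6 genes in the FXR+/+ and FXR-/- libraries, with 1 symbol per library and a bar for the mean ± SD of 3 libraries. FXR-/- libraries lie above all FXR+/+ libraries for Gas2l3 and below them for Nr1h4, Fgd6, Ndufa12, Metap2 and Elk3, and the Nr1h4 values of FXR-/- libraries are 0.

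The next exons by p-value, those of Metap2, Elk3 and Vezt, were in the same direction as Fgd6. The last exon of Metap2, which encodes an aminopeptidase that removes the first methionine of new proteins, had 808, 528 and 1010 counts in FXR+/+ and 377, 255 and 394 in FXR-/- libraries. The groups did not overlap, and the log2 fold change was -1.02 ± 0.14 (adjusted p = 0.0921, paired 0.00126). Its first exon was at -0.25 (unadjusted p = 0.372). The last exon of Elk3, an ETS-family transcription factor, had 463, 304 and 509 counts in FXR+/+ and 201, 153 and 241 in FXR-/- libraries, with a log2 fold change of -0.94 ± 0.16 (adjusted p = 0.153, paired 0.00893). Its coding exon at chr10:93264880-93265680 had 241, 188 and 239 counts against 220, 177 and 271, which overlap. Vezt encodes vezatin, a membrane protein of cell junctions, and its 332-base coding exon at chr10:93984162-93984493 had 18, 14 and 20 counts in FXR+/+ and 0, 1 and 4 in FXR-/- libraries. The groups of this exon did not overlap, its log2 fold change was -3.13 ± 0.64, and its adjusted p was 0.270 (paired 0.0464). Its log2 fold change ran from -4.64 without FXR-/- male 2 to -2.43 without FXR-/- female 1.

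Other exons reached an unadjusted p under 0.01 for their level or their usage in either direction, and none of them an adjusted p under 0.05. The exon of Ikbip, which encodes an interaction partner of a kinase of the NF-kappa-B pathway, at chr10:91095784-91098658 was at -0.78 ± 0.18 on the log2 scale (paired adjusted p = 0.0224) and its 3′-most exon at -0.51 ± 0.15. The 3′-most exon of 1500026H17Rik had 15, 11 and 17 counts in FXR+/+ and 3, 3 and 5 in FXR-/- libraries. That of Nudt4, a phosphatase of inositol pyrophosphates, was at -0.44 ± 0.14. The last exon of Dram1, a lysosomal membrane protein, was higher, with 41, 39 and 61 against 86, 63 and 69 counts (log2 fold change 0.79 ± 0.20). The first listed exon of Ntn4, a netrin of basement membranes, was at 1.21 ± 0.35 (0.67 to 1.53 with 1 library left out), while its 3′-most exon was at -0.75 ± 0.34. In Tmem263 a 371-base exon had 19, 17 and 32 counts in FXR+/+ and 22, 36 and 32 in FXR-/- libraries, and stood apart from its gene only at an unadjusted p under 0.01.

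By position, the exons that were lower in every FXR-/- library lay in a part of the interval. Of the 130 tested exons, 83 had a log2 fold change below 0 (63.8%, against 48.9% of all tested exons), and the median was -0.10 against 0.01 over all exons tested. All FXR-/- libraries were below all FXR+/+ libraries for 19 exons (14.6%, against 5.71% of all tested exons and 5.4% of the 1167 tested on the rest of chromosome 10), and above them for 6 (4.62%, against 6.42%). At an unadjusted p under 0.05, 19 exons were lower (14.6%, against 3.11% of all tested exons) and 8 were higher (6.15%, against 4.69%). The 19 exons without overlap belong to 15 genes and start between 89.5 and 95.5 Mb, the first being the last exon of Nr1h4 and the last that of Nudt4. Limits drawn around these 19 exons were set after their values were seen, so the counts and medians inside and outside them describe these exons and test nothing. Within them were 58 tested exons with a median log2 fold change of -0.29, 48 of them below 0. The 49 tested exons before that stretch had a median of 0.01, with 22 below 0, and the 23 after it a median of -0.02, with 13 below 0. Exons of 1 gene share its transcripts, so these counts are not of independent items.

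**Figure D3:**
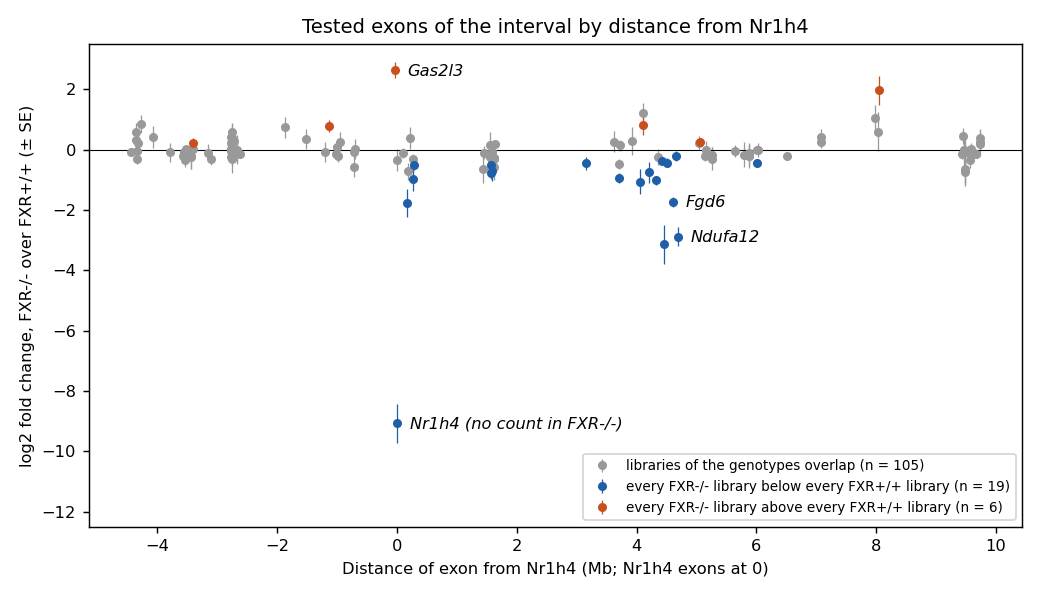
Log2 fold change of FXR-/- over FXR+/+ with its SE (vertical axis) for the 130 tested exons against their distance from Nr1h4 in Mb (horizontal axis), coloured by whether the libraries of the genotypes overlap. The 19 blue exons, lower in every FXR-/- library, begin at Nr1h4 and end about 6.01 Mb to its right, and the 6 orange ones, higher in every FXR-/- library, are scattered on both sides. The Nr1h4 point is a fitted value for an exon with no count in FXR-/- libraries and gives no size.

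The 559 exons that were not tested were read by counts. For 32 of them (5.72%, against 4.38% of all untested exons) every FXR-/- library was below every FXR+/+ library, and for 14 (2.50%, against 2.24%) every one was above. Exons counted in each FXR+/+ library and in no FXR-/- library numbered 10 (1.79%, against 0.929% of all untested exons). Those counted in each FXR-/- library and in no FXR+/+ library numbered 3 (0.537%, against 0.44%). The 10 exons without a count in FXR-/- libraries lay in Rmst, Nedd1, Snrpf, 4933408J17Rik, Gm15915, Vezt, Fgd6 and Eea1, with 3 to 14 counts in FXR+/+ libraries together. The highest were the 126-base exon of Snrpf, a core protein of spliceosomal particles, with 5, 1 and 6 counts, and an exon of 4933408J17Rik, which overlaps another exon of Snrpf in GENCODE vM21, with 4, 4 and 6. These counts are too low for a difference in a single exon to be measured.

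In the gene table, 72 of the 98 genes passed the filter and none was called, as none was in the whole table (0.0% of 14619). At an unadjusted p under 0.05, 12 genes were lower (16.7%, against 4.15% of all genes) and 5 were higher (6.94%, against 6.18%). Groups did not overlap for 13 genes that were lower (18.1%, against 7.37%) and 4 that were higher (5.56%, against 8.02%). The median log2 fold change of the 72 genes was -0.11, against 0.01 over all genes. With the libraries paired, Fgd6, Nr1h4 and Gas2l3 were called, and with DESeq2 also Ndufa12 and Vezt. How many genes of the whole table the paired fit and DESeq2 called was not counted. The share of 0.0% belongs to the main fit and cannot be set beside these calls. Genes with an unadjusted p under 0.01 beside these were Dram1 (0.73 ± 0.18), Ikbip (-0.58 ± 0.15), Snrpf (-0.39 ± 0.10) and Uhrf1bp1l (-0.41 ± 0.12), given as log2 fold changes with their SE.

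The 3′-most exon and the gene count gave nearly the same change for most genes. The reads of an exon are taken to be part of its gene count, so these values are not independent. Over 61 genes with both, the log2 fold change of the exon minus that of the gene had a median of -0.02 and quartiles of -0.08 and 0.06. It went past 0.5 in either direction for 8 genes. For 7 of these the exon was lower than its gene: Nr1h4, Ndufa12, 1500026H17Rik, Ntn4, Fgd6, Metap2 and Elk3, whose exons start between 89.5 and 94.2 Mb. For Lum the exon was higher. The same difference was not taken for genes outside the interval. How often a 3′-most exon departs this far from its gene elsewhere is therefore not known. Gas2l3 was not among them, but its last exon held most of its gene counts (9 of 10 in FXR+/+ female 1 and 98 of 123 in FXR-/- female 1).

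**Figure D4:**
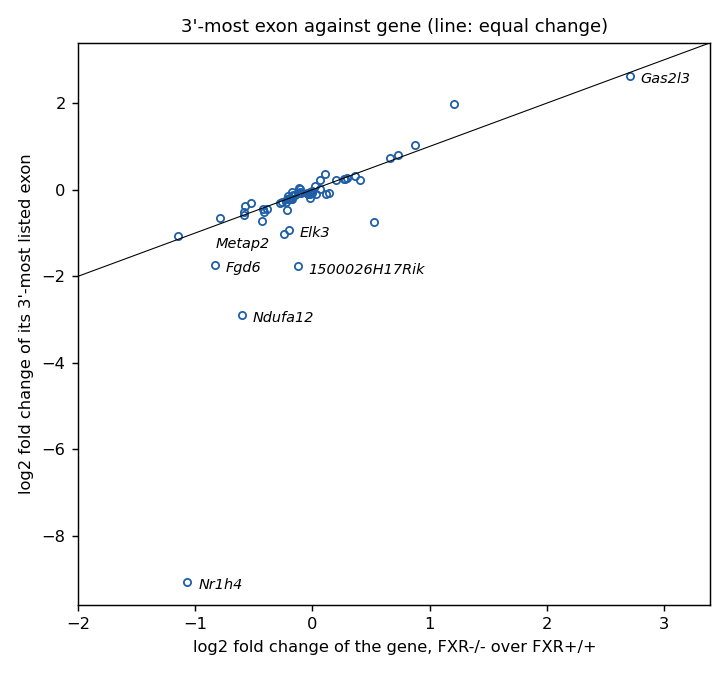
Log2 fold change of the 3′-most listed exon (vertical axis) against that of its gene (horizontal axis), FXR-/- over FXR+/+, for 61 genes of the interval, with a line of equal change. Nr1h4, Ndufa12, 1500026H17Rik, Fgd6, Metap2 and Elk3 lie below the line, Gas2l3 lies on it, and most other genes lie near it.

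Of the 3 nearest tested genes on each side of Nr1h4, Gas2l3 was higher in FXR-/- islets and the others had log2 fold changes below 0. The nearest gene toward higher coordinates, Slc17a8, was too low to be tested. Toward lower coordinates, after Gas2l3, Utp20 of ribosomal RNA processing was at -0.11 ± 0.14 and Arl1, a GTPase of the Golgi, at -0.12 ± 0.11 in the gene table. Toward higher coordinates, Scyl2 of vesicle transport was at -0.15 ± 0.10, 1500026H17Rik at -0.13 ± 0.21 and Actr6, a nuclear actin-related protein, at -0.43 ± 0.18, all as log2 fold changes with SE and with adjusted p from 0.480 to 0.824. Of these only Actr6 had all FXR-/- libraries below all FXR+/+ libraries, as did 7.37% of all tested genes. The 3′-most exon of 1500026H17Rik alone was at -1.77, further below 0 than its gene count.

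Grouped by function, no list of the interval had a member with an adjusted p under 0.05 in the gene table. The shares of all 14619 genes at an unadjusted p under 0.05, 4.15% lower and 6.18% higher, stand beside the counts that follow. Of 5 mitochondrial genes, 1 was lower at that level, which was Ndufa12. Slc25a3, the phosphate carrier, Mterf2, Mrpl42 and Apaf1, which builds the apoptosome, lay between -0.10 and 0.15 on the log2 scale. Of the 5 genes of the endoplasmic reticulum and Golgi, 4 were tested and lay between -0.12 and 0.20, Hsp90b1, a chaperone of the endoplasmic reticulum, being the highest with 26489, 18084 and 37166 gene counts in FXR+/+ and 26359, 26745 and 29103 in FXR-/- libraries. Of 7 genes of growth factors and feedback regulators, 6 were tested, and 1 was higher at that level (Ntn4, 0.53 ± 0.21). The circadian repressor Cry1 was at 0.40 ± 0.27. Of 19 FXR target genes outside the interval, 8 were tested and 0 were called by edgeR, as were 0 of all genes, with 1 higher and 1 lower at an unadjusted p under 0.05.

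Of 4 small proteoglycans of connective tissue, Lum and Dcn were tested. The 3′-most exon of Lum had 5, 12 and 4 counts in FXR+/+ and 35, 18 and 25 in FXR-/- libraries, with a log2 fold change of 1.97 ± 0.48 (adjusted p = 0.394), which ran from 1.55 without FXR+/+ male 2 to 2.82 without FXR+/+ male 1. Dcn had 102, 282 and 71 gene counts in FXR+/+ and 353, 204 and 268 in FXR-/- libraries, which overlap. The 4 other markers of stellate cells and fibroblasts, all counted in every library, summed to 24.9 to 112 CPM in FXR+/+ and 83.7 to 102 CPM in FXR-/- libraries, with the FXR+/+ male 1 library the highest. Their part in the values of Lum and Dcn was not tested. The 22 acinar markers, all counted in every library, summed to 49477 to 148514 CPM in FXR+/+ and 70488 to 169589 CPM in FXR-/- libraries, and with a term for acinar RNA in the model all 4 called exons were called again, along with that of Metap2. The 4 endothelial markers summed to 323 to 403 CPM in FXR+/+ and 416 to 656 CPM in FXR-/- libraries, and the 7 macrophage markers to 110 to 148 and 147 to 174 CPM. Their part in the results was not tested.

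The exons with the most reads in the interval, which also reflects their length, showed little. The 10 with the highest mean counts, among them the long 3′-most exons of Timp3, an inhibitor of matrix proteases, of Btg1, a regulator of proliferation, and of Atp2b1, a calcium pump of the plasma membrane, had log2 fold changes between -0.44 and 0.26. Timp3 had 3111, 2258 and 4691 counts in FXR+/+ and 2281, 2775 and 1919 in FXR-/- libraries, with a log2 fold change of -0.30 ± 0.21. Exons of Tmem263, Tmpo, Nt5dc3, Hsp90b1, Galnt4 and Tmcc3 made up the others with Nudt4, and of the 10 only Nudt4 and Tmcc3 had groups that did not overlap, the former lower and the latter higher in FXR-/- libraries. Over all tested exons, groups did not overlap for 5.71% (lower) and 6.42% (higher). A single exon of 10 in each direction is therefore no result about these exons.

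An effect of genotype that differed between the sexes was not called for any of the 130 exons (1 at an unadjusted p under 0.05) or the 72 genes (0), with 1 female in each group. Leaving out 1 library at a time kept Nr1h4 among the called exons in all 6 fits. The last exon of Fgd6 was not called without FXR-/- male 2, nor that of Gas2l3 without FXR-/- female 1 or male 2, nor that of Ndufa12 without FXR+/+ female 1, FXR-/- female 1 or FXR-/- male 2, and each kept its direction with adjusted p from 0.053 to 0.0708.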

How the data were processed

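The authors deposited whole-number counts per exon and per gene without normalization. Per the labels, mRNA was enriched with oligo(dT) beads and primed with random hexamers, and the submitters' processing notes name HISAT. The counting rule, annotation and strand setting are not given in the sources used here. Exon positions are those of GRCm38: 86.8% of rows match an exon of GENCODE vM21, as did 600 of the 689 rows used here. Exons without a read are not listed. From 139263 rows, 77 exact repeats were removed. No column of sample values was left unused. The authors' deposited comparisons of the genotypes (log2 fold changes, p-values and q-values) were not used.

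Exons and genes were tested over the whole tables in R 4.3.3 with edgeR 4.0.16 (filterByExpr with a minimum count of 10 and a minimum total of 15, TMM, glmQLFit, glmQLFTest, and a model of sex plus genotype), exon usage with diffSpliceDGE, and DESeq2 1.42.0 was an alternative. P-values were adjusted by Benjamini-Hochberg, with calls at 0.05. CPM are counts per 1000000 after TMM scaling, and SE come from the F statistic. The scripts were tested on simulated data. Exon totals were 6827362 to 11029507 and gene totals 20629306 to 30139235 counts per library, and the intervals given cover counting error only.

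Libraries were paired by the numbers in their labels, which do not say what a number marks. Deviations of same-numbered libraries (female 1, male 1, male 2) from their group means correlated at 0.373, 0.419 and 0.346 over genes and at 0.221, 0.369 and 0.0988 over exons. Libraries with unlike numbers correlated from -0.358 to 0.0628 over genes and from -0.392 to 0.226 over exons. The value of 0.226, for FXR+/+ male 2 with FXR-/- female 1, was above those of the same-numbered female 1 and male 2 pairs over exons. No 2 replicates agreed within sampling noise. The exons, gene lists and tests were chosen with earlier results of these data known. Named are Nr1h4, Gas2l3, Fgd6, Ndufa12, members of the lists, exons and genes with an unadjusted p under 0.01, the 3 nearest tested genes on each side of Nr1h4 and the 10 exons with the highest mean count.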

Additional observations from a re-analysis of the deposited data

How the results depend on the processing

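The count of called exons, 4, was between 3 and 5 in all alternatives except these: 8 with the libraries paired (replicate block), 1 with males alone, 1 when 10 counts were required in every library, and 1 to 5 when each library was left out in turn. DESeq2 also called 4, of which 2 were shared, and gave no adjusted p for Nr1h4 and Ndufa12. For genes, 0 were called except with the block (3), a term for acinar RNA (1), DESeq2 (5) and exon counts summed per gene (3). Calls over the whole table were counted for the main fits only, so no such share stands beside the alternatives. For exon usage, 2 were called except with the block (0), males alone (0), 10 counts in every library (0) and the acinar term (0), and between 0 and 2 when a library was left out. Without the filter on low counts, and without FXR+/+ male 1, FXR+/+ male 2 or FXR-/- male 2, only 1 of the 2 was shared, and the exon of Nr1h4 before the last took the place of the 369-base exon. The cause was not tested, except that the requirement of 10 counts removes the other 3 called exons from the test. Among 63 named values, 1088 of 1166 refits kept direction and side of the threshold, 25 lost it, 23 gained it and 30 changed sign, all 30 in values that were not called. Sign changes outside the left-out libraries were Atp2b1 exon 0.086, Mterf2 0.0191, Igf1 -0.209, Apaf1 0.0481 and Slc25a3 0.0258 with the acinar term, Gnptab -0.0479 and Slc25a3 0.0621 with males alone, Gnptab -0.078 with library size alone, Slc25a3 0.000956 without a term for sex, and Utp20 0.0319 from summed exons. With 1 library left out, log2 values ran from -0.052 to 0.504 for the Btg1 exon, -0.196 to 0.105 for the Atp2b1 exon, -0.305 to 0.0631 for Mterf2, -0.196 to 0.548 for Igf1, -0.0476 to 0.103 for Gnptab, -0.218 to 0.00753 for Utp20, -0.262 to 0.0449 for 1500026H17Rik, -0.153 to 0.0934 for Apaf1, -0.0608 to 0.0625 for Slc25a3, -0.0512 to 0.516 for the Btg1 gene and -0.0554 to 0.586 for Dusp6. Of the exons in the interval, 559 were too low to test.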
